A study of Mus musculus with 2 samples.

Results

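Molecular chaperones of the heat shock protein, DNAJ and TRiC families were examined on 2 single-colour NimbleGen arrays of long-term haematopoietic stem cells (LT-HSCs), the rare marrow cells that sustain blood formation. Members were the genes whose symbol in the array annotation begins with Hsp followed by a digit or by a, b, d, e or h, with Dnaja, Dnajb or Dnajc, or with Cct2 to Cct8, together with Tcp1. This gave 84 genes, read by 151 transcript rows, of 24171 named genes measured. One array held cells of cia-cGAS knockout mice and the other cells of cia-cGAS WT mice, cia-cGAS being described in the labels as a circular RNA. All mice were C57BL/6, aged 8 weeks and kept free of specific pathogens, and the cells were sorted from bone marrow. The labels state neither how the knockout was made, nor the sorting markers, nor how many mice gave cells to an array.

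Each genotype has 1 array, so no difference below has a replicate check, no test between genotypes was run, and all values describe these 2 samples. Values are RMA intensities on the log2 scale, in which a step of 1 is a 2-fold change, and differences are knockout minus wild type. A gene was taken as detected above the level that 95% of 969 rows for smell, pheromone and taste receptors did not exceed. This floor was 8.94 in the knockout and 9.05 in the wild type. Folds are given only for genes above the floor on both arrays. Many genes are read by several rows, and over the 2974 genes with more than 1 row above both floors the pooled within-gene SD of the difference was 0.37. That SD covers the choice of probes on these arrays and not variation between mice.

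Chaperones bind unfolded or aggregation-prone proteins and help them to reach or keep their folded state. HSP70 proteins hold short hydrophobic stretches in a cycle driven by ATP. DNAJ proteins (HSP40s) deliver clients to HSP70 and stimulate its ATPase through their J domain, and HSP110 proteins exchange its nucleotide. HSP90 acts later, on kinases and receptors among others. TRiC is a ring-shaped chaperonin of the cytosol that folds actin and tubulin, and HSP60 with its lid HSP10 does the like in mitochondria. Small HSPs hold unfolded proteins without ATP. Blood stem cells make protein slowly, and protein quality is known to matter for their upkeep.

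Of the 84 genes, 51 (60.7%) lay above the floor on both arrays, against a background of 38.9% of all genes measured, 2 in the knockout alone, 3 in the wild type alone and 28 on neither. Among the 51, Dnajb6 and Dnajc13 exceeded their wild-type level by 2-fold or more, 2 genes against a background of 5.37% of the 9405 genes above both floors. At least 2-fold lower were 4, Dnajc21, Dnajc9, Hsph1 and Hspd1, against a background of 4.14%. Those counts make 3.92% and 7.84% of the 51 genes, and the background for both directions together was 9.51%. The difference was below 0 for 32 of the 51 (62.7%), where the background was 53.4%. The median difference was -0.19 for the 51 genes and -0.04 for all 9405 genes. Of the 51, 29 (56.9%) differed by less than the within-gene SD of 0.37, where 58.6% of all genes did. Beyond that SD, 4 of the 51 were higher and 18 lower. The genes beyond that SD were not counted by direction over all 9405 genes, so this split has no direct background. The lower and upper quartiles of the difference over all 9405 genes were -0.34 and 0.27. With no floor, the median over all 84 genes was -0.06 and that over all genes -0.04.

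**Figure D1:**
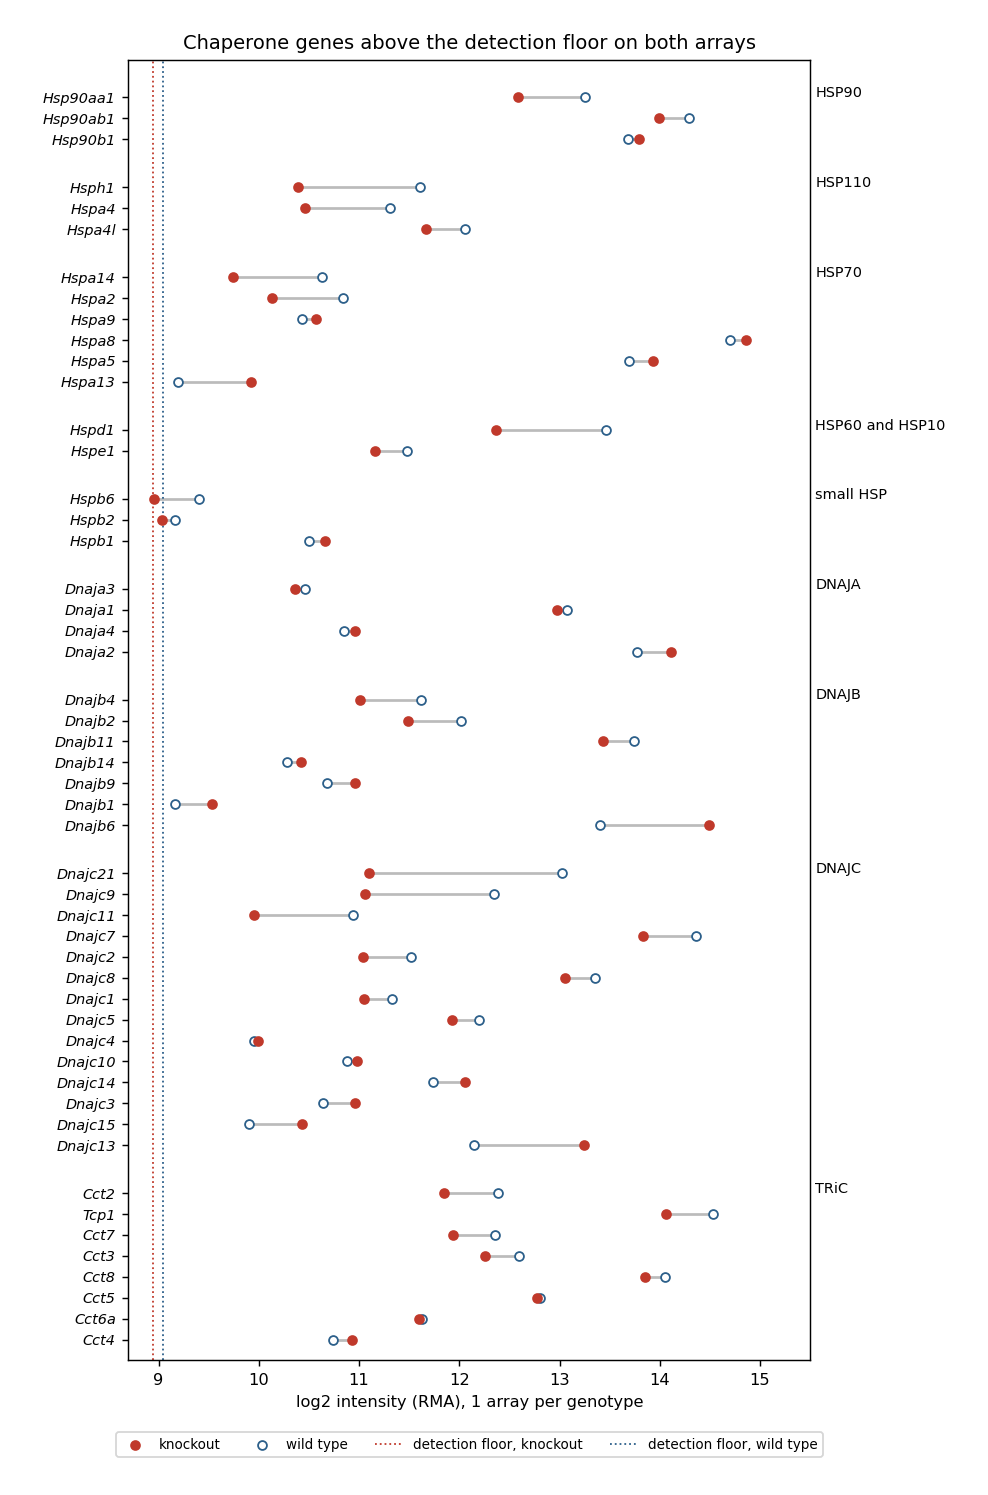
Log2 RMA intensity (x axis) of chaperone genes above the detection floor on both arrays, grouped by class, with the knockout array as filled and the wild-type array as open circles, and the floors of 8.94 and 9.05 as dotted lines. The lines are short for most genes, and the longest belongs to Dnajc21, at 11.10 in the knockout and 13.03 in the wild type.

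The DNAJC class, J-domain proteins grouped by the J domain alone and otherwise diverse, held the extremes. Dnajc21, a co-chaperone of ribosome assembly whose loss causes a bone marrow failure syndrome in humans, read 11.10 in the knockout and 13.03 in the wild type. It was 3.81-fold lower in the knockout, the largest difference in size of the 51 genes (transcript on MM9 chromosome 15 from 10381337 to 10391179). Its second row above both floors differed by -1.62, and 3 rows below a floor differed by -0.46, -0.44 and -0.31, so that all 5 rows were lower. Averaged over the 5 rows, the difference was -0.96.

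Dnajc9, a J-domain protein that works with histones H3 and H4, read 11.06 in the knockout and 12.35 in the wild type, 2.44-fold lower (chromosome 14, 21204082 to 21208094). Its other row, below both floors, differed by -1.39. Genes of DNA replication were lower on the same array. Of 20 listed, 16 lay above both floors, with a median difference of -0.56. Of the 16, 6 were at least 2-fold lower and 0 higher, against backgrounds of 4.14% and 5.37%. The part of fewer dividing cells in the Dnajc9 value was not tested, and in bulk samples fewer cells of a type and less RNA per cell cannot be told apart.

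In the opposite direction, Dnajc13 (also called RME-8), which acts with HSP70 on endosomes, read 13.24 in the knockout and 12.15 in the wild type, 2.14-fold higher. Its 2 rows lie on separate stretches of chromosome 9, from 104053936 to 104089987 and from 104102766 to 104165262, and both were higher, by 1.10 and 1.59. The annotation thus holds 2 transcripts without a shared base that gave the same direction.

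The remaining DNAJC genes above both floors were nearer to 0. Dnajc11, a mitochondrial protein found with the complex that shapes the cristae, lay just short of the 2-fold limit at -0.98 (9.95 in the knockout and 10.94 in the wild type), while its dim second row differed by 0.10. Dnajc2, which forms the ribosome-associated complex with Hspa14, read 11.04 in the knockout and 11.52 in the wild type. The other rows of Dnajc2, each below a floor, differed by -1.64, -0.58, 0.93 and -0.02. Hspa14 itself read 9.74 in the knockout and 10.64 in the wild type, a difference of -0.89, although its second row above both floors differed by only -0.09. Dnajc15, a mitochondrial inner membrane J protein, read 10.43 in the knockout and 9.90 in the wild type.

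Dnajc7 and Dnajc5 had rows above both floors that pointed opposite ways. The brightest row of Dnajc7, a co-chaperone of HSP70 and HSP90, differed by -0.52 and its other row by 0.22. Those of Dnajc5, the cysteine string protein of secretory vesicles, differed by -0.28 and 0.41. No direction can be read for either gene. Dnajc8, a J protein of the spliceosome, differed by -0.30, and Dnajc1 and Dnajc4 by -0.28 and 0.05. The brightest row of Dnajc14 differed by 0.32. Its other rows above both floors differed by -0.01 and 0.07, and its dim row by 0.48. Dnajc30, which is known in the mitochondria, passed the floor in the wild type alone, at least 1.81-fold lower in knockout cells. Dnajc24, a J protein of diphthamide synthesis, was likewise above the floor in the wild type alone, at least 1.27-fold lower. Over the class, 14 of 28 genes lay above both floors, 6 with a positive and 8 with a negative difference, and the median was -0.28. With all rows of a gene averaged, the median of the class was 0.11 over 10 genes.

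**Figure D2:**
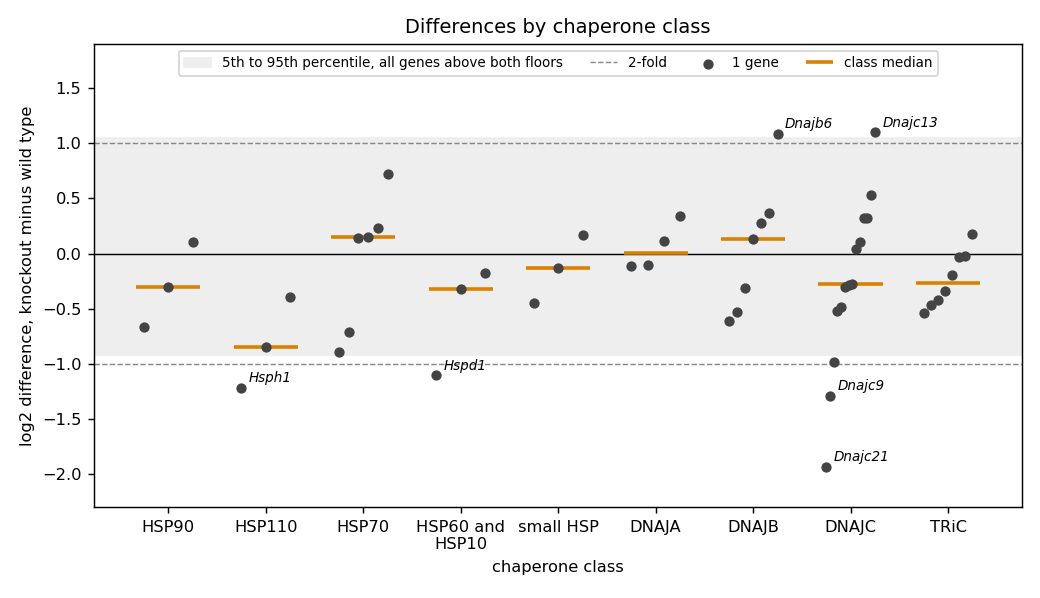
Log2 difference, knockout minus wild type (y axis), of each gene above both floors by chaperone class (x axis), with class medians as orange bars, the 2-fold limits dashed and the 5th to 95th percentile of all 9405 genes shaded. The 6 named genes lie beyond 2-fold. The bars of HSP110 (-0.85), HSP60 and HSP10 (-0.32), HSP90 (-0.30), DNAJC (-0.28), TRiC (-0.26) and small HSPs (-0.13) lie below 0.

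DNAJA and DNAJB proteins are the canonical HSP40s. Dnajb6, which keeps polyglutamine and other aggregation-prone proteins soluble, read 14.49 in the knockout and 13.41 in the wild type. It was 2.12-fold higher in the knockout (chromosome 5) and is measured by a single row. Dnajb1, the classic heat-inducible HSP40, read 9.54 in the knockout and 9.16 in the wild type, a difference of 0.37 at a level close to the floor. Dnajb4 and Dnajb2 were lower, at -0.61 and -0.53, and the second row of Dnajb2 differed by -0.27. The second row of Dnajb4, below both floors, differed by 0.45.

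The 4 DNAJA genes all lay above both floors and none passed 2-fold. Dnaja1, a partner of HSP70 in the cytosol, read 12.98 in the knockout and 13.08 in the wild type. Dnaja2 read 14.11 in the knockout and 13.77 in the wild type, Dnaja4 10.96 and 10.85, and the mitochondrial Dnaja3 10.36 and 10.47. Their differences ran from -0.11 to 0.34, all within the pooled SD between rows. The median was 0.00 for DNAJA and 0.14 for the 7 DNAJB genes above both floors.

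HSP110 was the class with the lowest median, -0.85 over 3 genes, which turned to 0.15 with all rows averaged, when 1 gene was left above both floors. Hsph1, a heat-inducible nucleotide exchange factor and disaggregase component, read 10.39 in the knockout and 11.61 in the wild type, 2.32-fold lower from its brightest row (chromosome 5, 150419417 to 150438765). Its 2 other rows, below the floors, differed by 1.45 and 0.88. When all 3 rows were averaged, the difference turned to 0.37, so its direction depends on the row chosen. Hspa4, the constitutive member, read 10.46 in the knockout and 11.31 in the wild type, with a dim second row at 0.36. Hspa4l, highest in testis but induced by stress elsewhere, differed by -0.39 and, in its second row above both floors, by -0.19, while its 2 dim rows differed by 0.65 and 0.54 and the average of all rows was 0.15.

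Among HSP70 genes, the stress-inducible pair Hspa1a and Hspa1b, whose levels climb within minutes to hours of heat or cell handling, lay below the floor on both arrays. Hspa1a read 8.63 in the knockout and 8.08 in the wild type, and Hspa1b read 7.57 in the knockout and 7.66 in the wild type. Both genes are nearly identical in sequence and can share hybridisation, so neither is certain alone. Hspa8, the constitutive HSP70 of the cytosol, read 14.86 in the knockout and 14.70 in the wild type. Its second row differed by -0.30. Hspa9 (mortalin), the HSP70 of mitochondria, read 10.57 in the knockout and 10.43 in the wild type. Hspa2, best known in testis, differed by -0.72 from a single row. Of 11 HSP70 genes, 6 lay above both floors, 4 with a positive and 2 with a negative difference, and the median was 0.15.

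Of the mitochondrial chaperonin, HSP60 was past 2-fold and HSP10 was not. Hspd1 (HSP60) read 12.36 in the knockout and 13.47 in the wild type, 2.15-fold lower from 1 row. Hspe1 (HSP10) read 11.16 in the knockout and 11.48 in the wild type, but its second row, nearly as bright, differed by 0.17. Trap1, the HSP90 of mitochondria and a member of a list of co-chaperones examined beside the families, was 2.70-fold lower, at 10.37 in the knockout and 11.80 in the wild type.

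Hspd1 and Hspe1 are transcribed in opposite directions, and the stretch between the Hspe1 start and 1 of the 2 annotated Hspd1 starts carries a heat shock element, the site of the heat shock factors. The other Hspd1 start lies beyond the Hspe1 start, and its window held no match. The element was searched as 3 alternating units, GAA-TTC-GAA or TTC-GAA-TTC, each 2 bases apart, so that both strands are covered, in RefSeq windows (GRCm38.p6) from 250 bases before to 50 after each annotated start. Windows were found for 68 of the 84 genes, and 4 of these genes held it, Hspd1, Hspe1, Hsph1 and Dnajb6, against 0.66% of all 27025 genes with a window. The shorter element of 2 units was in 20 of the 68 (29.4%), among them Hspa1a, Hspa1b, Hspb1 and Dnajb4, against 17.0% of all genes. In Hsph1 the match of 3 units began 16 or 37 bases into the transcript, depending on the start. Hspd1 and Hspe1 share the same stretch, which is counted for each of them. The differences of the 4 genes with 3 units were -1.10 for Hspd1, -0.32 for Hspe1, -1.22 for Hsph1 and 1.09 for Dnajb6. Hsph1 turned to 0.37 with its rows averaged, and the second row of Hspe1 differed by 0.17. A link between the motif and the direction was not tested. Shown for Hspd1, which was lower, and Dnajb6, which was higher, are stretches before the start, kept to 30 bases for Hspd1, with the motif in capitals; in Hspd1, 2 matches overlap. The Hspd1 stretch is chr1:55088053-55088082 on the minus strand and that of Dnajb6 chr5:29735648-29735897 on the plus strand.
Hspd1: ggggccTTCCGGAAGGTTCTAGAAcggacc
Dnajb6: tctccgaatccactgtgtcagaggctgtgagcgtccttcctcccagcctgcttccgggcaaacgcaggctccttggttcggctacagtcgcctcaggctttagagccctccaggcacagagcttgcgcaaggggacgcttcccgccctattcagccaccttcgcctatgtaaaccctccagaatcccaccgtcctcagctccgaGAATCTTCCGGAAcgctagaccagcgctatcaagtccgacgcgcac

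**Figure D3:**
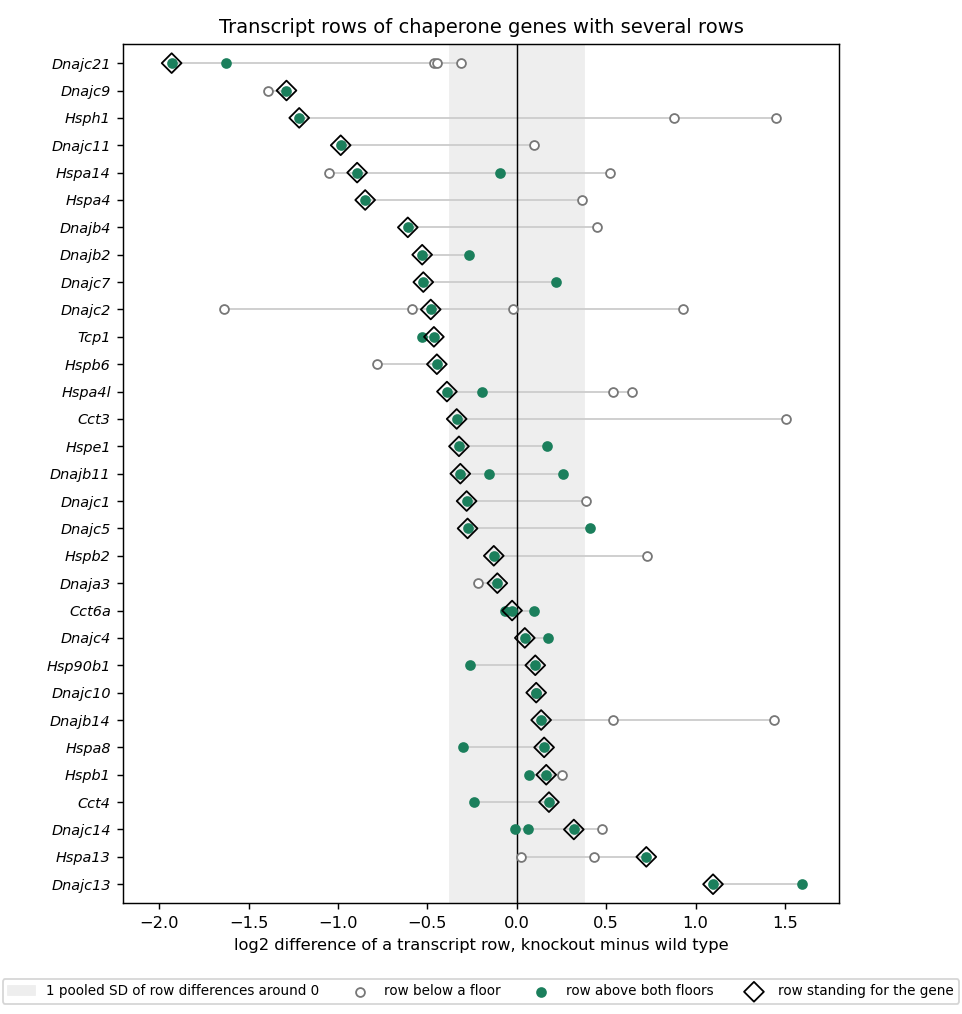
Log2 difference, knockout minus wild type (x axis), of every transcript row of the chaperone genes above both floors that have several rows, with filled circles for rows above both floors, open circles for rows below a floor and a diamond for the row standing for the gene. Both rows of Dnajc13 lie right of 1, all 5 rows of Dnajc21 lie left of 0, and the rows of Hsph1 run from -1.22 to 1.45.

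Agreement between rows was limited, and it was not counted by size of difference. Of 17 chaperone genes with several rows above both floors, 8 had all these rows on one side of 0 and 9 did not. For all 2974 such genes the share on one side was 60.3%, against 47.1% for the chaperones. The gap between the highest and the lowest row had a median of 0.36 in the chaperone genes and 0.40 over all genes.

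HSP90 genes stayed within 2-fold. The inducible cytosolic Hsp90aa1 read 12.59 in the knockout and 13.25 in the wild type, 1.59-fold lower. The constitutive Hsp90ab1 read 13.99 in the knockout and 14.29 in the wild type, a difference of -0.30. Hsp90b1 (GRP94), the HSP90 of the endoplasmic reticulum (ER), read 13.79 in the knockout and 13.69 in the wild type, with a second row at -0.26. The first 2 are read by 1 row each.

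Of the 10 ER chaperones listed by compartment, 9 lay above both floors. Of these, 7 had a positive difference, against a background of 4378 of the 9405 genes above both floors. None passed 2-fold and the median was 0.14. All except Hspa13 differed by less than the pooled SD of 0.37, and Hsp90b1 turned to -0.08 with its rows averaged. The heat-inducible genes of the cytosol and nucleus had a median of -0.39 over 7 genes, the constitutive ones -0.39 over 10, the mitochondrial ones -0.22 over 6 and TRiC -0.26 over 8. With all rows of a gene averaged, the heat-inducible median turned to 0.035 and the mitochondrial one to 0.033. Hspa5 (BiP), the ER HSP70 and sensor of unfolded proteins, read 13.93 in the knockout and 13.70 in the wild type. Hspa13, an HSP70 of microsomes, read 9.92 in the knockout and 9.20 in the wild type, 1.65-fold higher, and was the gene nearest below the 2-fold limit on the upper side. Its 2 dimmer rows differed by 0.43 and 0.03.

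The J proteins of the ER lay close to these. Dnajb9 (ERdj4), a target of the unfolded protein response, read 10.96 in the knockout and 10.68 in the wild type. Dnajc3 (p58IPK), an ER co-chaperone of BiP, read 10.96 in the knockout and 10.64 in the wild type. Dnajb11 (ERdj3) had 3 rows above both floors, which differed by -0.32, -0.16 and 0.26, so that its direction is not settled. Dnajb14 and Dnajc10 differed by 0.14 and 0.11, although 2 dim rows of Dnajb14 differed by 1.44 and 0.54 and its average was 0.70. Dnajb12 passed the floor in the knockout alone, at least 1.06-fold higher. Dnajc1, named above and also listed with the ER, differed by -0.28, and its dim second row by 0.39. From the brightest rows, the differences of all these J proteins above both floors are smaller than the pooled SD between rows.

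Promoters of 3 of these ER genes carry the ER stress response element (CCAAT, 9 bases of any kind and CCACG, searched on both strands), the site through which the unfolded protein response acts. Of the 68 genes with a window, those 3, Hspa5, Hsp90b1 and Dnajc3, held it, against 0.137% of all genes with a window. Their differences were 0.23, 0.10 and 0.32. The 250 bases before each start are shown because these genes are the main ER set, with the motif in capitals. They are chr2:34771840-34772089 on the plus strand for Hspa5, chr10:86705445-86705694 on the minus strand for Hsp90b1, with 2 matches in opposite orientations, and chr14:118937682-118937931 on the plus strand for Dnajc3.
Hspa5: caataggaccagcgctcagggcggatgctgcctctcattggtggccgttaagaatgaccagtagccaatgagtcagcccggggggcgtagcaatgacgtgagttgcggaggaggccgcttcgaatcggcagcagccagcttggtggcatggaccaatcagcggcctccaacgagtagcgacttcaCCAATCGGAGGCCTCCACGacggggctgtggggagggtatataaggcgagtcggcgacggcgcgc
Hsp90b1: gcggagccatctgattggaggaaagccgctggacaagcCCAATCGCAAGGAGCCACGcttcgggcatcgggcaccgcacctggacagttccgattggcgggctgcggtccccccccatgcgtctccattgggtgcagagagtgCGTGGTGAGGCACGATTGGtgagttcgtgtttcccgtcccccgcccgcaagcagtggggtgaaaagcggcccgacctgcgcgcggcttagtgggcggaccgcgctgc
Dnajc3: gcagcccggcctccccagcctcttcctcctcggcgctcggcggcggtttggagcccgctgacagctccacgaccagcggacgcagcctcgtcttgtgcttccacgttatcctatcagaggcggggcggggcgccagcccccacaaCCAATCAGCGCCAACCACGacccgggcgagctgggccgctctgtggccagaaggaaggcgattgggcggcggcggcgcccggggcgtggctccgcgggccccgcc

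The 8 subunits of TRiC, which assemble in equal number, all lay above both floors and none passed 2-fold. Cct2 read 11.85 in the knockout and 12.39 in the wild type, the lowest difference of the complex at -0.54. Tcp1 read 14.07 in the knockout and 14.53 in the wild type, and its 2 rows differed by -0.46 and -0.53. Cct7 read 11.94 in the knockout and 12.36 in the wild type, and Cct3 read 12.26 in the knockout and 12.59 in the wild type. These 4 subunits were 1.26-fold to 1.46-fold lower. The difference was -0.19 for Cct8, -0.03 for Cct5 and -0.03 for Cct6a, the last 2 turning to 0.01 each with loess centring. The 3 rows of Cct6a ran from -0.06 to 0.10. Cct4 was the 1 subunit with a positive difference, 0.18, and its second row differed by -0.24. A dim second row of Cct3 differed by 1.51, and averaging both rows gave 0.58. The testis form Cct6b and the related Cct8l1 lay below the floor on both arrays.

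Of 8 small HSPs, 3 lay above both floors, a share close to the 38.9% of all genes. Hspb1 (HSP25), the stress-inducible member, read 10.66 in the knockout and 10.50 in the wild type. Its second row above both floors differed by 0.07. Hspb6 and Hspb2, known from muscle, read 8.96 and 9.03 in the knockout and 9.41 and 9.16 in the wild type, next to the floor. Their second rows, below both floors, differed by -0.78 and 0.73. Averaging the rows turned Hspb2 from -0.13 to 0.30. Hspb8 was above the floor for knockout cells only and is given no fold, as its knockout value was under the wild-type floor. Hspb3, Hspb7, Hspb9 and Hspb11 were below both floors. Of the HSP70-binding proteins, Hspbap1 passed the floor in the wild type alone, at least 1.09-fold lower in the knockout, and Hspbp1 passed neither. The other genes below both floors were Dnajb3, Dnajb5, Dnajb8 and Dnajb13, the HSP70 genes Hspa1l, Hspa12a and Hspa12b, and 12 DNAJC genes, among them Dnajc5g, Dnajc19 and Dnajc27. Some of these dim genes differed by more than 1 in size, as Dnajc5g did at 1.87 (6.48 in the knockout and 4.61 in the wild type), and no fold is read from them.

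Related genes outside the naming pattern were examined as lists. The background among all genes above both floors was 4.14% at least 2-fold lower, 5.37% at least 2-fold higher and 53.4% with a negative difference. With so few genes per list, counts of 1 or 2 are not read as a result about a list. Of 17 co-chaperones of HSP90 and HSP70 above both floors, 2 were at least 2-fold lower and 0 higher, with a median of -0.06. These were Trap1 and St13, which links HSP70 to HSP90, at 11.42 in the knockout and 12.53 in the wild type, 2.16-fold lower. Of 12 genes of prefoldin, which hands actin and tubulin to TRiC, and of partners of TRiC, 1 was at least 2-fold lower and 0 higher (median -0.27). It was the prefoldin subunit gene Pfdn2, at 12.95 in the knockout and 14.11 in the wild type, while the subunit gene Vbp1 differed by 0.42. Of 7 BAG and nucleotide exchange genes, 0 passed 2-fold and 6 had a negative difference (median -0.19). Bag4 passed the floor in the wild type alone, at least 1.91-fold lower in the knockout.

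Regulators of both stress responses differed in either direction. Hsf1, the master factor of the heat shock response, read 9.88 in the knockout and 9.41 in the wild type, and Hsf2, Hsf3 and Hsf4 lay below both floors. The list of heat shock factors had 2 genes above both floors, Hsf1 and Hsbp1, whose difference was -0.55, with 0 past 2-fold. Of 19 genes of ER folding and the unfolded protein response, 1 was at least 2-fold lower and 0 higher (median -0.13). The background was 4.14% lower and 5.37% higher. That gene was Sec63, a J-domain protein of the ER translocation channel, at 11.83 in the knockout and 12.91 in the wild type. Xbp1, a transcription factor of that response, differed by 0.81, Ddit3 by 0.14 and Atf4 by 0.02. Eif2ak3 (PERK), a sensor of the response, differed by -0.96, which is 1.94-fold lower in the knockout. The sensor Ern1 and the oxidase Ero1a passed the floor in the knockout alone, Ern1 level with the wild-type floor and Ero1a at least 1.22-fold higher. Of the 3 detected J-domain genes outside the pattern, Sec63, Hscb and Gak, all had a negative difference (-1.07, -0.49 and -0.35) and Sec63 alone passed 2-fold.

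**Figure D4:**
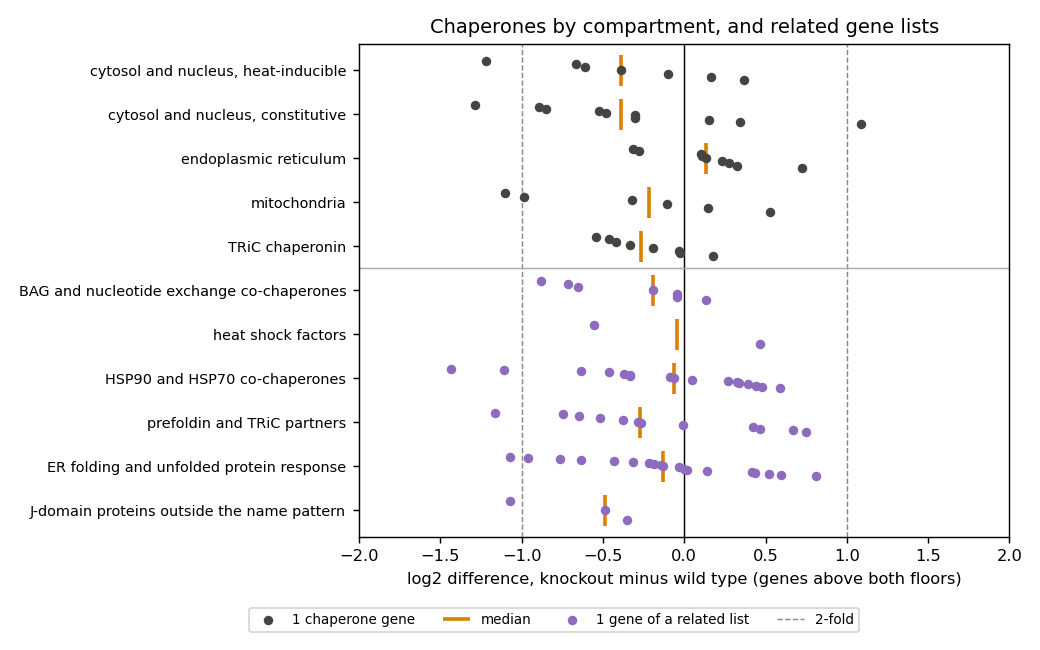
Log2 difference, knockout minus wild type (x axis), of genes above both floors, for the chaperones by compartment (dark points) and for related gene lists (violet points), with medians as orange bars and the 2-fold limits dashed. The ER chaperones have a median of 0.14, the highest of the 5 compartments and the 1 above 0.

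The same arrays differed in markers of other marrow cells, whose part in the chaperone values was not tested. B lineage markers read lower in the knockout: all 16 measured had a negative difference, and their summed intensity was 6487 in the knockout and 29246 in the wild type. Of 15 erythroid markers, 13 had a negative difference, with sums of 91428 in the knockout and 118999 in the wild type. Without the globin genes Hba-a1 and Hbb-b1, left out after their values were seen, the sums were 16094 in the knockout and 32652 in the wild type. Neutrophil markers were higher for 13 of 16, with sums of 251872 in the knockout and 185771 in the wild type. Monocyte and macrophage markers were higher for 8 of 12, with sums of 52374 in the knockout and 27980 in the wild type, or 20640 in the knockout and 16883 in the wild type without Ctss, likewise left out afterwards. Type I interferon-stimulated genes were higher for all 20 measured, with a median of 2.87 over the 15 above both floors. Of the surface genes listed, Kit, Ly6a, Cd34, Tek and Cd48 lay above both floors, whereas Procr and Slamf1, which are typical of LT-HSCs, lay below both. Detection of the former, Cd34 and Cd48 included, was not taken as a sign of LT-HSCs, and the identity of the cells was not tested. No row was matched to the circular RNA, so the deletion was not checked here.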

How the data were processed

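The authors deposited 1 file per array and a series-wide table, both holding an intensity on a linear scale for each transcript row, made by RMA per the submitters' processing notes, with no version. Per the file headers, 44155 of 44170 rows come from 3 probes each, the probe count being given with the row. The labels' protocols give oligo dT priming and Cy3 labelling. RMA equalises the distributions of arrays, so differences are relative to other genes. Coordinates are those of the MM9 annotation in the files, which do not say whether counting starts at 0 or 1.

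The deposited values were taken as log2 without further normalization. A gene with several rows was represented by its brightest row on average, with symbols updated through gene IDs by a RefSeq table (GRCm38.p6, names and promoter windows only). It held the IDs of all 84 chaperone genes. The floor rule used receptor symbols as in the files. For a gene above 1 floor, the bright value was set against the floor of the other array. With 1 array per genotype nothing was tested, and the number of arrays limits the precision. Counting was tested on simulated data. Python 3.11.15, numpy 2.4.6, pandas 2.3.3 and statsmodels 0.14.6 were used.

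The members, classes, compartments and lists were chosen with earlier results of these data known. The naming rule took members past 2-fold, the 3 brightest of each class, a set of well-known chaperones, members with discordant rows, those nearest the limit, and list genes past 2-fold. A member and a marker gene are counted but not reported singly here. Other members were named to account for the families, after their values were seen.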

Additional observations from a re-analysis of the deposited data

How the results depend on the processing

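No paired analysis was possible because each genotype has 1 array. The series-wide table differed from the files by at most 1.277e-06 on the log2 scale and changed nothing. A value was taken as moved where it changed by more than the pooled SD of rows, 0.37, and a count where it changed by over 1.5 times. Without a floor 5 of 84 chaperones were at least 2-fold higher, against a background of 5.82% of all genes. With a 3-fold limit 0 were higher and 1 lower, and with a 1.5-fold limit 10 were lower. No background was counted at these limits, so those counts are not read as a result about the chaperones. Averaging all rows of a gene left 1 of 38 chaperones at least 2-fold lower, against a background of 2.75%. It turned Hsph1 to 0.37, and moved the medians of HSP110 to 0.15, DNAJC to 0.11 and the heat-inducible genes to 0.035. These medians are over the 1, 10 and 6 genes then above both floors. Under all settings the median of the chaperones ran from -0.23 to -0.03. With all rows averaged it was -0.032, close to the -0.027 of all genes above both floors. With loess centring the median was -0.14 for the chaperones and 0.01 for all such genes. With the floor at the 99th percentile it was -0.23 and -0.03. The median of TRiC ran from -0.26 to -0.11, of HSP90 from -0.30 to -0.24 and of the ER genes from 0.11 to 0.17. The medians of HSP70, small HSPs, DNAJB and the mitochondrial genes changed sign under some settings. Loess centring and the floors at the 99th percentile, at the median of all rows or with receptor rows found by updated symbols, the last added after seeing the data, kept both counts within 1.5 times, as did adding bounds.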
